A study of Macaca radiata with 4 samples.

Results

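The genes described here build, cross-link or cut the extracellular matrix of the corpus luteum. They are the collagens, laminins, nidogens, fibronectin, thrombospondins, fibrillins, elastin, lysyl oxidases and 4 proteoglycans on the building side. On the cutting side they are the matrix metalloproteinases (MMPs), the ADAMTS proteases, the tissue inhibitors of metalloproteinases (TIMPs), urokinase with its receptor, and an inhibitor of the plasminogen system. They were found by a rule on gene symbols, which uses no measured value but was set with earlier results of these data known. The rule found 107 of the 14132 genes that have a probe set with a single symbol, covered by 212 probe sets, and each gene was represented by its brightest probe set. Of the 107, 89 passed a filter on low signals, which kept a probe set when its mean log2 value over the 4 arrays lay above that of a signal of 90.7. Among all genes, 10998 passed it.

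RNA was measured on 4 Affymetrix rhesus macaque arrays, each of a corpus luteum from a female bonnet monkey (Macaca radiata). All animals, controls included, received 150 µg/kg of CET, an agent used in the study to shut off LH secretion, on luteal day 7. After 24 h of CET, 1 group was injected intravenously with 20 IU/kg of rhLH (replicates 3 and 4) and the other with 0.5 ml of PBS (replicates 1 and 2), and the gland was removed 8 h after the injection. The comparison asks which luteal transcripts differ when LH is restored after its withdrawal. No group without CET is among the samples, so every value below is a contrast between LH-deprived glands with and without an LH injection. The labels speak of 2 animals in each group without saying which array came from which, so the limma p-values below measure the spread between 2 arrays of a group, which may be technical in part.

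The corpus luteum forms from the ruptured follicle within days. Its cells and the new capillaries among them are carried by basement membranes of type IV collagen, laminin and nidogen, and by an interstitial matrix of fibrillar collagens, fibronectin and proteoglycans. LH keeps the gland alive, and when the gland regresses its matrix is taken apart, work in which MMPs and ADAMTS proteases take part and which TIMPs restrain. ADAMTS1 is known from mice as a protease that the ovulatory LH surge raises in the follicle, where it cuts versican.

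Signals were MAS5 values on a linear scale, and differences are rhLH minus PBS on the scale of log2(signal + 16), which understates the change of dim probe sets. The arrays had median signals of 135.5 and 135.4 after rhLH, against 186 and 139 after PBS. PBS replicate 1 stood apart from the others: its Pearson correlation with each of them across kept probe sets was 0.752 to 0.780, and the other pairs gave 0.940 to 0.947. Across the 89 matrix genes alone it was 0.847 to 0.899, and for the other pairs 0.964 to 0.975. Results are therefore given against each PBS array as well. The tissue label was borne out by luteal steroidogenic genes, of which 5 of 8 were measured: STAR, the cholesterol carrier of the mitochondrion, had signals of 52570.3 and 51659.6 after rhLH, against 24283 and 54566 after PBS.

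No matrix gene passed the limma test. Among all 31659 kept probe sets, limma called 0% at an adjusted p of 0.05 (smallest adjusted p = 0.919) and gave an unadjusted p under 0.05 to 2.02%. Of the 89 matrix genes, 2 had an unadjusted limma p under 0.05 (2.25%), a share near the background. They were ADAMTS1 and ADAMTS5, and after adjustment the 89 genes had limma p-values of 0.919 to 0.999. An exact two-sided permutation test of 2 arrays against 2 cannot go below p = 0.33. The rest of the account therefore describes levels and separation of the arrays, and makes no call.

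Both rhLH signals lay below both PBS signals for 24 of the 107 genes (22.4%), against 17.5% of all genes. The opposite, both rhLH signals above both PBS signals, held for 8 of 107 (7.48%), against 15.1% of all genes. Over the 89 genes above the filter the counts were 20 lower (22.5%, against 16.1% of kept genes) and 7 higher (7.87%, against 16.3%). None of the 107 was at least 2-fold higher or lower on every rhLH array than on every PBS array, where 0.488% of all genes were higher and 0.835% lower by that rule. The median difference of the 89 genes was 0.0013 on the log2 scale, with a range of −1.02 to 1.44, against a median of 0.018 for all kept genes. It was 0.017 against PBS replicate 1 alone and −0.20 against replicate 2 alone. Without PBS replicate 1, the counts became 40 lower (44.9%, against 34.1% of kept genes) and 18 higher (20.2%, against 34.7%). Without PBS replicate 2 they were 39 and 38 (43.8% and 42.7%, against 43.5% of kept genes either way). With an rhLH array left out, they were 30 lower (33.7%, against 26.4% of kept genes) and 17 higher (19.1%, against 25.4%) without replicate 3. Without replicate 4 they were 30 lower (33.7%, against 27.8%) and 20 higher (22.5%, against 29.4%). With an array left out fewer signals have to agree, which raises such counts over all genes and in the role groups below.

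**Figure D1:**
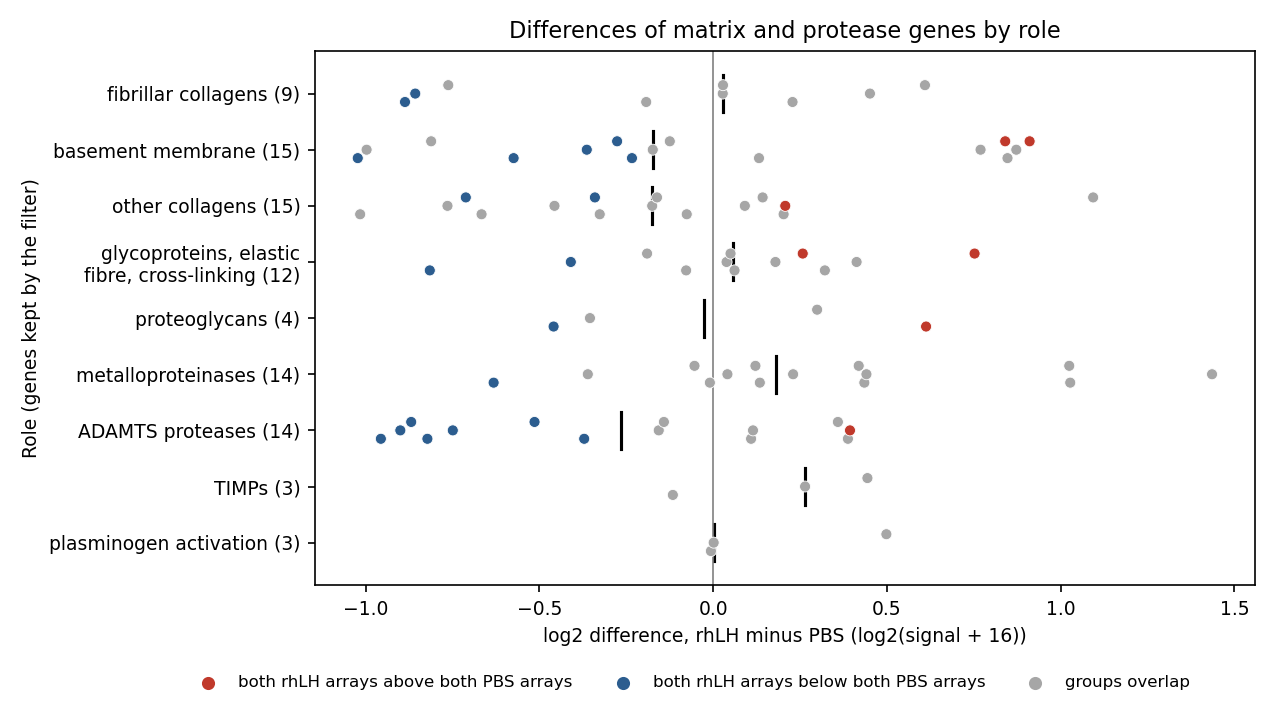
Log2 difference in signal, rhLH minus PBS, of the 89 matrix genes above the filter, grouped by role, with 1 point per gene. Red points lay above and blue points below both PBS arrays on both rhLH arrays, grey points overlapped, and the black tick is the median of a group: blue points gather in the ADAMTS row, where 7 of 14 genes are blue.

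The ADAMTS proteases, secreted metalloproteinases that cut proteoglycans and procollagens, held the largest share of genes lower on both rhLH arrays among the 9 role groups. Of 17 genes in the group, 8 were lower on both rhLH arrays (47.1%, against 17.5% of all genes) and 1 was higher (5.88%, against 15.1%). Of the 14 above the filter, 7 were lower (50%, against 16.1% of kept genes) and 1 was higher (7.14%, against 16.3%). Their median difference was −0.26, with −0.45 against PBS replicate 1 alone and −0.33 against replicate 2 alone, and 0 of them passed the limma test. When each gene was given the median over its kept probe sets in place of its brightest, the group's median shrank to −0.075, with 7 genes positive and 7 negative, and 5 of 14 were lower on both rhLH arrays, against 1758 of 10998 kept genes. When the arrays were centred on their medians, which moved the median of all kept probe sets by 0.23, 6 of 14 were still lower on both rhLH arrays (42.9%, against 9.48% of kept genes), and their median was −0.037 beside 0.25 for all kept genes. Leaving out PBS replicate 1 gave 10 lower genes (71.4%, against 34.1% of kept genes), and leaving out PBS replicate 2 gave 9 (64.3%, against 43.5%). Without rhLH replicate 3 there were 8 (57.1%, against 26.4%), and without rhLH replicate 4 there were 7 (50%, against 27.8%). In bulk tissue, fewer cells of a type and less RNA per cell cannot be told apart.

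ADAMTS1, which cuts versican and aggrecan, had signals of 2825 and 3752 on the rhLH arrays, against 6319 and 5622 on the PBS arrays. Both rhLH signals lay below both PBS signals, and the PBS arrays lay close together. The difference was −0.87 (SE 0.32), with −0.95 against PBS replicate 1 alone and −0.79 against replicate 2 alone. ADAMTS5, the main aggrecanase of cartilage in mice, had signals of 1918 and 2560.0 after rhLH, against 3653 and 4233 after PBS. Here too the groups did not overlap, and the difference was −0.82 (SE 0.32), larger against PBS replicate 2 (−0.93) than against PBS replicate 1 (−0.72). ADAMTS4, another aggrecanase, had signals of 1386 and 1943 after rhLH, against 2749.7 and 2792 after PBS. Its PBS signals were nearly alike, both rhLH signals were below them, and the difference was −0.75 (SE 0.33), with −0.74 and −0.76 against the PBS arrays. Against a single PBS array, the differences of these 3 proteases were −0.95 to −0.72. They were named for the smallest limma p among the lower ADAMTS genes without overlap, and ADAMTS1 and ADAMTS4 also as well-known matrix genes. Being lower against either PBS array follows from that choice and is no separate result. In all 3, rhLH replicate 3 was the lowest of the 4 arrays.

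Further probe sets of the same genes read the same RNA and are no replicates, but they show whether a difference hangs on 1 probe set. The second probe set of ADAMTS1 had signals of 909 and 869 after rhLH, against 1069 and 1617 after PBS (difference −0.56). All 4 probe sets of ADAMTS5 had negative differences, −0.95 to −0.44, and 3 of them did not overlap between the groups. ADAMTS4 had a further probe set at −0.42, with signals of 296 and 307 after rhLH against 542 and 306 after PBS, which overlap. Across the group, 19 of 27 kept ADAMTS probe sets had a negative difference (70.4%, against 52.5% of all kept probe sets) and 12 were lower on both rhLH arrays (44.4%, against 17.7%).

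The other 4 lower ADAMTS genes are named after their values were seen. ADAMTS2, which trims the amino end of fibrillar procollagens, had signals of 301 and 539.7 after rhLH, against 908 and 648 after PBS (difference −0.90, SE 0.45), but its 2 further probe sets stood at 0.18 and 0.73. ADAMTS6 had signals of 419 and 498 after rhLH, against 1433 and 564 after PBS, and its difference of −0.96 (SE 0.52) shrank to −0.30 against PBS replicate 2. ADAMTS10, a protease that binds fibrillin, had signals of 1098 and 874 after rhLH, against 1486 and 1330.1 after PBS (−0.51), and a further probe set at 0.53. ADAMTS18 was dim, with signals of 123 and 171 after rhLH, against 195 and 191 after PBS (−0.37). Its second probe set lay at −1.20, with both rhLH signals near the filter level.

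ADAMTS14, like ADAMTS2 a procollagen N-proteinase, was the 1 member higher on both rhLH arrays, with dim signals of 221 and 189 after rhLH, against 187 and 123 after PBS. Its lower rhLH signal exceeded the higher PBS signal by less than either group's own spread, and the difference was 0.39 (SE 0.52). The remaining 6 genes above the filter overlapped between the groups, with differences of −0.16 to 0.39. Among them, and named after its values were seen, ADAMTS9, which cuts versican, had signals of 1863 and 1717 after rhLH, against 2551 and 1529 after PBS. All 5 of its probe sets had negative differences, −0.52 to −0.14, though PBS replicate 2 gave the lowest signal of the 4 arrays for the brightest of them. ADAMTS13, which cuts von Willebrand factor, is named in the same way and had 152 and 126 after rhLH, against 42.5 and 333 after PBS, so that the PBS arrays bracketed both rhLH arrays. ADAMTS17, ADAMTS19 and ADAMTS20 did not pass the filter.

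**Figure D2:**
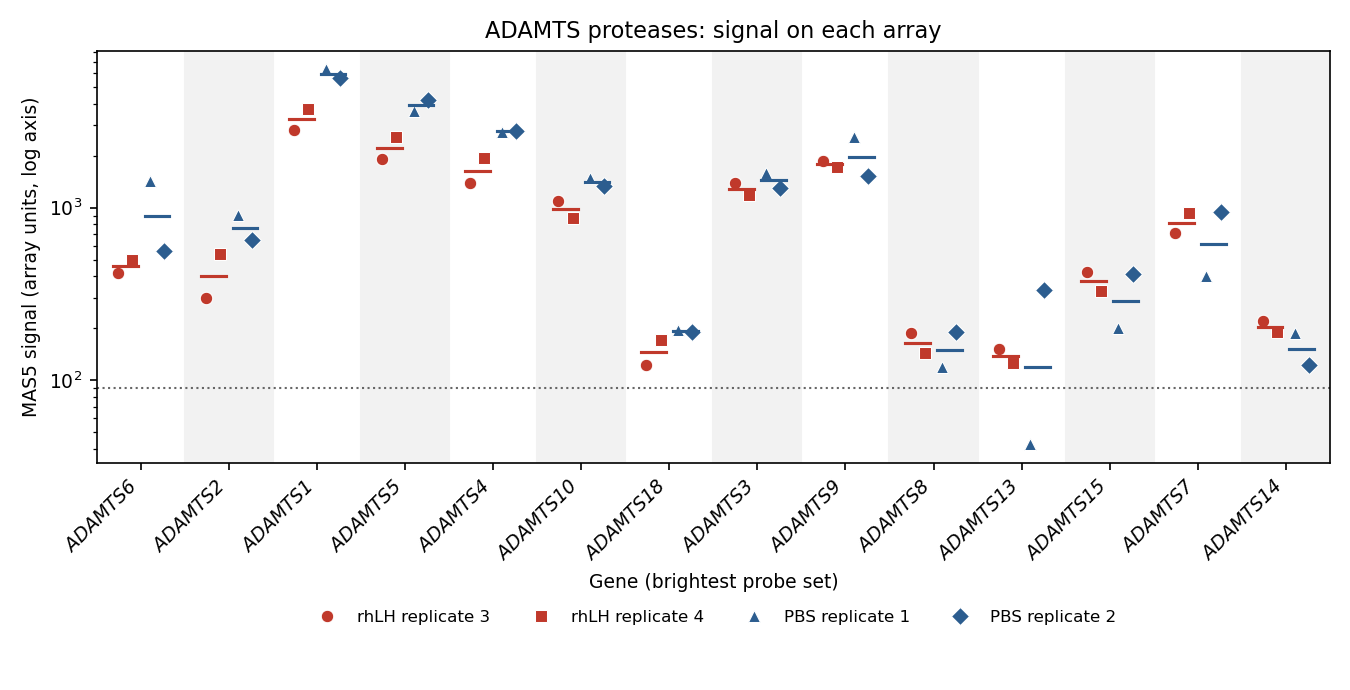
Signal on each array (log axis) of the 14 ADAMTS genes above the filter, ordered by their difference, with rhLH replicates 3 and 4 in red at the left of each gene and PBS replicates 1 and 2 in blue at the right. Bars are the geometric means of 2 arrays and the dotted line is the filter level of 90.7: for ADAMTS1, ADAMTS4 and ADAMTS5 the PBS symbols lie nearly on each other and above both rhLH symbols.

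The matrix metalloproteinases mostly overlapped between the groups. Of 14 above the filter, 1 was lower (7.14%) and 0 were higher on both rhLH arrays, against 16.1% and 16.3% of kept genes. Without PBS replicate 1 the counts were 6 and 3, against 34.1% and 34.7% of kept genes. Without PBS replicate 2 they were 4 and 7, against 43.5% either way. The group's median difference was 0.18, with 0.21 against PBS replicate 1 alone and 0.0049 against replicate 2 alone. MMP28, also known as epilysin, was the lower one, with signals of 313 and 188 after rhLH, against 416 and 357 after PBS (difference −0.63, SE 0.47). MMP2, the gelatinase that most connective tissue cells make, had signals of 3939 and 4184 after rhLH, against 1601 and 5730.2 after PBS. Both rhLH signals fell between those of the PBS arrays, so that the difference was 1.33 against PBS replicate 1 alone and −0.50 against replicate 2 alone. MMP14, the membrane-bound protease that activates pro-MMP2, behaved alike, with 593 and 378 after rhLH, against 267 and 600.1 after PBS (0.23, SE 0.53).

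MMP9, the gelatinase of neutrophils and macrophages, had signals of 849 and 240.2 after rhLH, against 161 and 287 after PBS. The high mean rests on rhLH replicate 3, since rhLH replicate 4 lay below PBS replicate 2 (difference 1.02, SE 0.70). MMP1, an interstitial collagenase, had 184 and 75.9 after rhLH, against 154 and 73.9 after PBS, and so varied within each group far more than between them. MMP19 was level, with 1180.1 and 953 after rhLH, against 963 and 984 after PBS (0.12, SE 0.33). Named after its values were seen, MMP7 (matrilysin) was flatter still, with 1222 and 1192 after rhLH, against 1193 and 1238 after PBS. The widest difference among the 89 genes above the filter, 1.44 (SE 1.41) for MMP23, also named afterwards, came from PBS replicate 1, where its signal was 12.2, and PBS replicate 2 had 620.3, above the 454 and 263 of the rhLH arrays. Among the 8 MMPs of 22 that did not pass the filter were the collagenases MMP8 and MMP13, the stromelysin MMP3 and the macrophage elastase MMP12.

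The 3 TIMPs, which block the active site of MMPs, overlapped between the groups. TIMP1 had signals of 63082 and 62826 after rhLH, against 29388 and 72865 after PBS. The rhLH arrays nearly coincided and lay between the PBS arrays, so that the difference of 0.44 (SE 0.56) was made of 1.10 against PBS replicate 1 alone and −0.21 against replicate 2 alone. The TIMP1 signals on rhLH replicate 4 and on PBS replicate 2 were the highest of all probe sets on those arrays, and quantile normalization brought the difference to 0. The 2 further TIMP1 probe sets differed by −0.087 and −0.16. TIMP2 followed the same order, with 3201 and 2897 after rhLH, against 1579 and 4057 after PBS (0.26, SE 0.49). TIMP3, which binds to the matrix and also inhibits several ADAMTS proteases, had 604 and 1172 after rhLH, against 757 and 1104 after PBS (−0.12, SE 0.45). None of the 3 directions is settled by these arrays: without PBS replicate 1 the differences of TIMP1 and TIMP2 became −0.21 and −0.41, and centring the arrays turned that of TIMP3 to 0.11.

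The plasminogen system feeds MMP activation, because plasmin cuts MMP proforms. PLAU, or urokinase, had signals of 1974 and 1239 after rhLH, against 1619.8 and 1508 after PBS. PLAUR, its receptor, had 1172 and 679 after rhLH, against 1046 and 768 after PBS. In both genes the rhLH arrays enclosed the PBS arrays, and the differences were 0.0013 (SE 0.36) and −0.0066 (SE 0.41). Each has a second, dimmer probe set that did not lie level, at 1.20 for PLAU and 1.15 for PLAUR, through low signals of 70.8 and 90.6 on PBS replicate 1. The median over both probe sets was 0.60 for PLAU and 0.57 for PLAUR. SERPINE2, or protease nexin 1, which inhibits urokinase and thrombin, had signals of 16420.3 and 12125 after rhLH, against 8108 and 12292 after PBS. Its 4 probe sets had differences of 0.15 to 0.50, yet rhLH replicate 4 lay just below PBS replicate 2 for the brightest. PLAT was not analysed here.

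**Figure D3:**
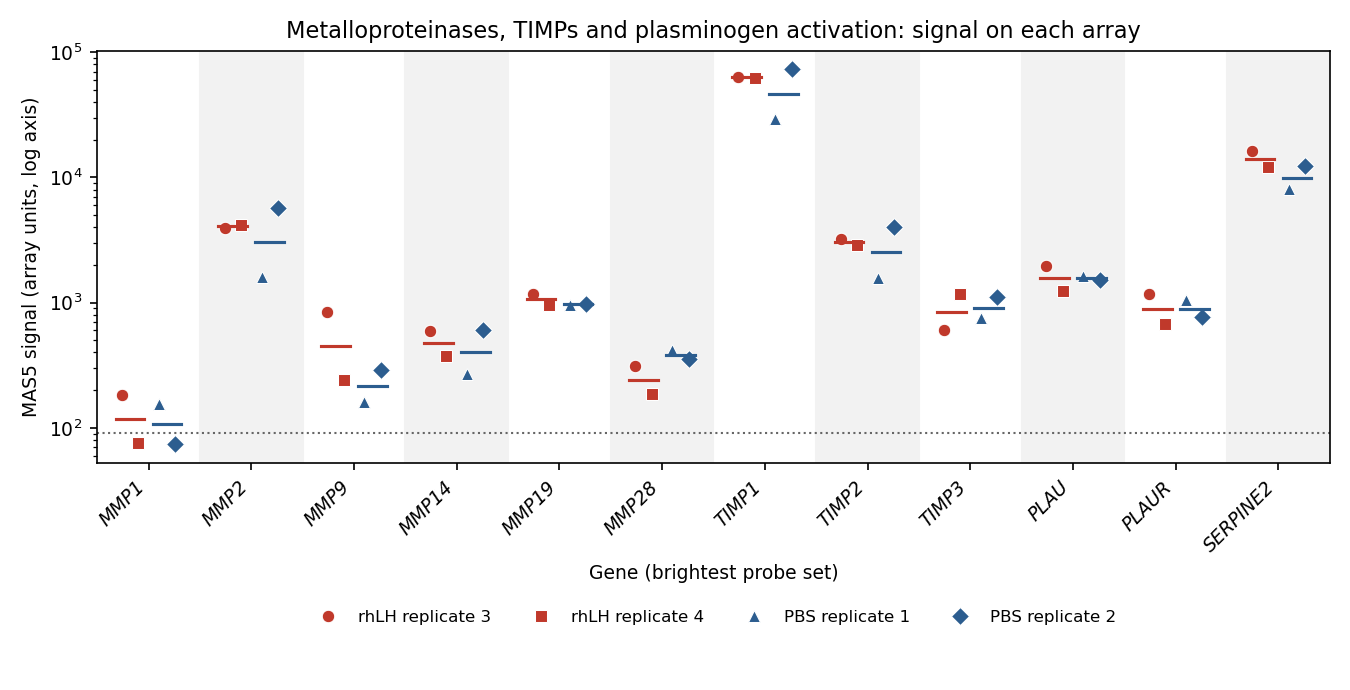
Signal on each array (log axis) of 6 MMPs, 3 TIMPs, PLAU, PLAUR and SERPINE2, with rhLH replicates 3 and 4 in red at the left and PBS replicates 1 and 2 in blue at the right. Bars are geometric means of 2 arrays and the dotted line is the filter level of 90.7: for TIMP1, TIMP2 and MMP2 the PBS symbols lie above and below both rhLH symbols.

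Basement membrane genes went both ways. Of 15 above the filter, 5 were lower on both rhLH arrays (33.3%) and 2 were higher (13.3%), against 16.1% and 16.3% of kept genes. Without PBS replicate 1 the counts were 7 and 3, against 34.1% and 34.7% of kept genes. Without PBS replicate 2 they were 8 and 7, against 43.5% either way. The median difference was −0.17, which turned to 0.054 when the arrays were centred. COL4A5, an alpha chain of type IV collagen, had signals of 657 and 744 after rhLH, against 2113 and 976 after PBS (difference −1.02, SE 0.45). COL4A4, another chain of that collagen, had 291 and 389 after rhLH, against 645 and 400.3 after PBS (−0.57, SE 0.44). In both, all rhLH signals were below all PBS signals, but PBS replicate 1 made the larger part of the difference, which against PBS replicate 2 was −0.47 for COL4A5. Type IV chains did not all go 1 way. COL4A3, named after its values were seen, had kept probe sets at −1.28 and 0.85. COL4A6, named in the same way, had them at −0.94 and −0.81. The chains most abundant in ordinary basement membranes, COL4A1 and COL4A2, were not analysed here.

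Among the laminins, LAMB1 and LAMC1 encode chains that join in many laminin trimers. LAMB1 had signals of 2299 and 3068 after rhLH, against 3183 and 3679 after PBS (−0.36, SE 0.32), and LAMC1 had 6425 and 6775 after rhLH, against 8114 and 7424 after PBS (−0.23, SE 0.31). Both were lower on both rhLH arrays by small amounts. The second LAMB1 probe set overlapped, with 1706 and 2448 after rhLH, against 2086 and 2906 after PBS. NID1, which encodes the nidogen that bridges laminin and type IV collagen, is named after its values were seen: it had 3478 and 3799 after rhLH, against 5059 and 3838 after PBS (−0.28), nearly equal to PBS replicate 2. LAMA4, the alpha chain of endothelial laminins, overlapped, with 3825 and 4645 after rhLH, against 3759 and 3934 after PBS (0.13, SE 0.31).

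COL15A1, COL18A1 and LAMB2 had positive differences, as did LAMA1, named after its values were seen, at 0.87. COL15A1, which encodes a basement membrane collagen with glycosaminoglycan chains, had signals of 4704 and 3815 after rhLH, against 1528 and 3298 after PBS. Both rhLH signals were above both PBS signals, and the difference was 0.91 (SE 0.44), with 1.46 against PBS replicate 1 alone and 0.36 against replicate 2 alone. Its second probe set showed almost no difference (0.037). LAMB2, a laminin beta chain known from the kidney filter, had signals of 1388 and 1505 after rhLH, against 493 and 1292 after PBS (0.84, SE 0.51), and against PBS replicate 2 that became 0.16. COL18A1, the source of the endostatin fragment, had 1329.6 and 1601 after rhLH, against 458 and 1564 after PBS, and overlapped through PBS replicate 2 (0.77, SE 0.60).

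Fibrillar collagens gave 0 genes higher and 2 lower (22.2%) on both rhLH arrays of 9 above the filter, against 16.3% and 16.1% of kept genes. Without PBS replicate 1 the counts were 3 and 2, against 34.7% and 34.1% of kept genes. Without PBS replicate 2 they were 3 and 6, against 43.5% either way. The group's median difference was 0.027, which turned to −0.13 with quantile normalization, −0.016 with a pseudocount of 64 and −0.026 with no filter. COL1A1 and COL1A2 encode the chains of type I collagen. COL1A1 had signals of 6449.8 and 12155 after rhLH, against 2777 and 12089.7 after PBS, and COL1A2 had 18925 and 22692 after rhLH, against 10894 and 21076 after PBS. For both genes PBS replicate 1 was the lowest array and PBS replicate 2 lay within the rhLH range, so that the differences of 0.61 (SE 0.74) and 0.45 (SE 0.45) turned to −0.45 and −0.024 without PBS replicate 1.

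COL3A1, which encodes type III collagen of soft tissue, had signals of 228 and 316 after rhLH, against 788 and 329 after PBS. The rhLH arrays were lower than both PBS arrays, with a difference of −0.89 (SE 0.55) that was −0.28 against PBS replicate 2. COL2A1, known for cartilage, was dim in the same order, with 192 and 242 after rhLH, against 563 and 289 after PBS (−0.86, SE 0.51). COL5A2, a partner chain of type I fibrils, is named after its values were seen as the fibrillar gene with most probe sets: its 4 probe sets had differences of 0.028 to 0.85.

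Of the other collagens, 2 of 15 were lower on both rhLH arrays (13.3%) and 1 was higher (6.67%), against 16.1% and 16.3% of kept genes. Without PBS replicate 1 the counts were 5 and 3, against 34.1% and 34.7% of kept genes. Without PBS replicate 2 they were 7 and 4, against 43.5% either way. The group's median of −0.18 became 0.052 when the arrays were centred. COL14A1, which encodes a collagen on the surface of fibrils, had signals of 795 and 982 after rhLH, against 1942 and 1094 after PBS (−0.71, SE 0.40), and its 2 further probe sets stood at −0.26 and 0.51. COL16A1, of the same family of fibril-associated collagens, had 527 and 569 after rhLH, against 609 and 798 after PBS (−0.34, SE 0.36). COL12A1, also fibril-associated, was higher by a narrow margin, with 2389.5 and 1907 after rhLH, against 1817 and 1877 after PBS (0.21, SE 0.31). Type VI collagen, a beaded microfibril, is named after its values were seen. COL6A2 had 2901 and 1689 after rhLH, against 367 and 2837 after PBS, and COL6A1 had 9395 and 7073 after rhLH, against 4902 and 10227 after PBS. In both, PBS replicate 1 was the lowest of the 4 arrays and PBS replicate 2 was above at least 1 rhLH array.

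Among glycoproteins, elastic fibre and cross-linking genes, 2 of 12 lay above both PBS arrays on both rhLH arrays and 2 lay below. Each is 16.7%, near the 16.3% and 16.1% of kept genes. Without PBS replicate 1 the counts were 3 and 6, against 34.7% and 34.1% of kept genes. Without PBS replicate 2 they were 7 and 3, against 43.5% either way. The group's median of 0.056 turned to −0.18 without PBS replicate 1. FN1, or fibronectin, had signals of 24333 and 25767 after rhLH, against 19473 and 30043 after PBS (0.050, SE 0.41), with both rhLH arrays between the PBS arrays. THBS1, an inhibitor of blood vessel growth that also activates latent TGF-beta, had 223 and 300.1 after rhLH, against 328 and 269.9 after PBS. The groups overlapped for its brightest probe set (−0.19, SE 0.45), and its 3 further probe sets had differences of −1.59 to −0.52. THBS2, its close relative, had 717 and 588 after rhLH, against 996 and 756 after PBS (−0.41, SE 0.36), and did not overlap.

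THBS4, a thrombospondin known from tendon and muscle, had signals of 3703 and 4705 after rhLH, against 3570.1 and 3409 after PBS (0.26, SE 0.31), higher on both rhLH arrays by little. FBN2, a fibrillin of developing elastic fibres, had 166 and 363 after rhLH, against 493 and 405 after PBS (−0.82, SE 0.52), a low value that rests mostly on rhLH replicate 3. Its second probe set stood at 0.49, and the median over both was −0.16. LOX, the lysyl oxidase that cross-links collagen and elastin, was level, with 377 and 497 after rhLH, against 368 and 483 after PBS (0.038, SE 0.41). LOXL3, a related enzyme, had 163 and 117 after rhLH, against 49.9 and 111 after PBS (0.75, SE 0.65), so that PBS replicate 1 lay below the filter level and the other PBS array nearly met rhLH replicate 4. LOXHD1, which the symbol rule took in, is no matrix gene and did not pass the filter, and SPARC was not analysed here.

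VCAN, or versican, the large proteoglycan that ADAMTS1, ADAMTS4, ADAMTS5 and ADAMTS9 can cut, had signals of 7936 and 8168 after rhLH, against 4600.2 and 6013 after PBS. The rhLH arrays nearly coincided above both PBS arrays, and the difference was 0.61 (SE 0.33), with 0.81 against PBS replicate 1 alone and 0.42 against replicate 2 alone. Its 5 probe sets gave differences of −0.18 to 0.88, so the brightest was not matched by all. BGN, or biglycan, had 1698 and 2333 after rhLH, against 2945 and 2554 after PBS (−0.46, SE 0.33), lower on both rhLH arrays, but its second probe set stood at 0.72. DCN, or decorin, which binds collagen fibrils, had 28431 and 23716 after rhLH, against 15362 and 28983 after PBS (0.30, SE 0.45). PBS replicate 1 alone lay below the rhLH arrays, and the difference turned to −0.16 without it.

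**Figure D4:**
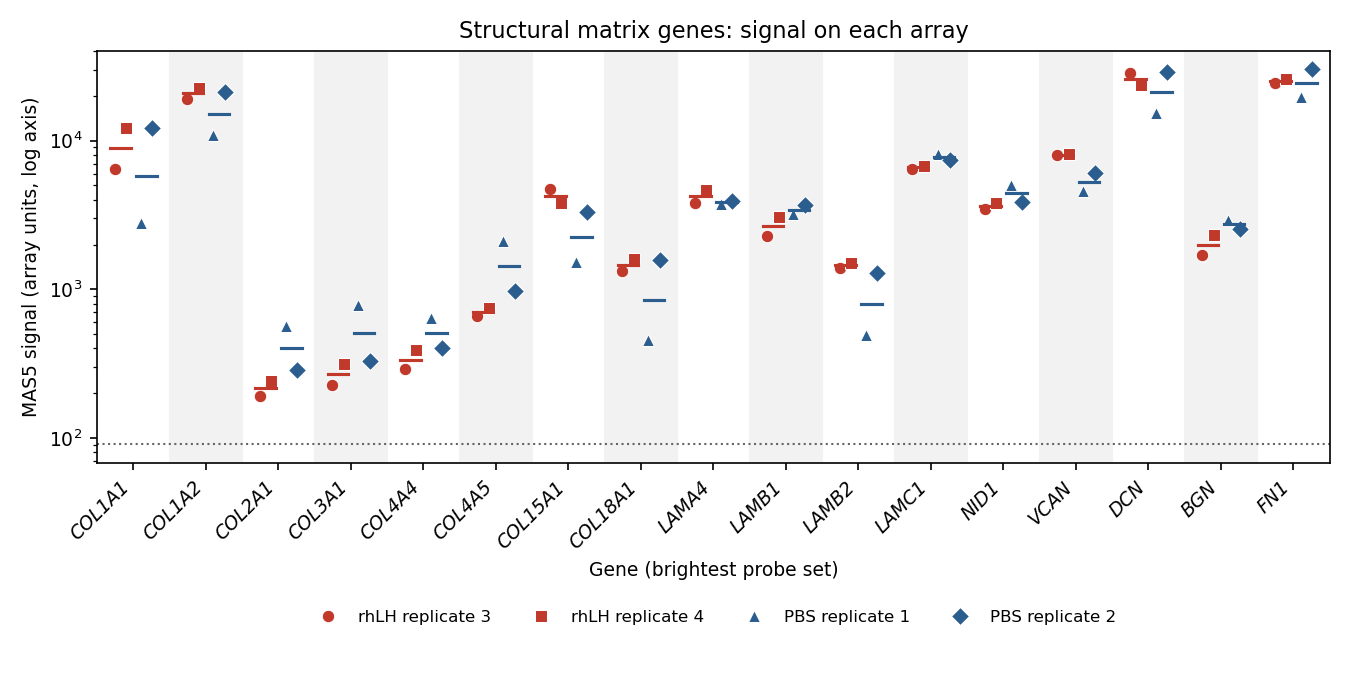
Signal on each array (log axis) of 17 structural genes (collagens, laminins, nidogen, proteoglycans and fibronectin), with rhLH replicates 3 and 4 in red at the left and PBS replicates 1 and 2 in blue at the right. Bars are geometric means of 2 arrays: for COL1A1, COL1A2, COL18A1 and DCN the PBS symbols are far apart and PBS replicate 1 is the lowest.

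How far the PBS arrays disagreed over these genes was measured directly. The median distance between the PBS arrays was 0.75 on the log2 scale over the 89 genes, and that between the rhLH arrays was 0.34, while the median size of the difference between groups was 0.36. Over all kept genes these were 0.66, 0.26 and 0.36. The difference between groups exceeded the distance within both groups for 9 of the 89 genes (10.1%, against 16.7% of kept genes). PBS replicate 1 was the lowest array for 36 of the 89 genes and the highest for 35, together 79.8%, a share equal to the 79.7% of all kept genes. It was lowest for 19 and highest for 14 of the 44 brighter genes (43.2% and 31.8%). Among the 45 dimmer ones it was lowest for 17 and highest for 21 (37.8% and 46.7%). All kept genes, split at their own median, gave 48.2% and 32.8% for the brighter and 31.4% and 47.1% for the dimmer. The pattern was thus not limited to matrix genes. For 47 of the 89 genes (52.8%, against 47.5%) the sign differed between the PBS arrays.

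**Figure D5:**
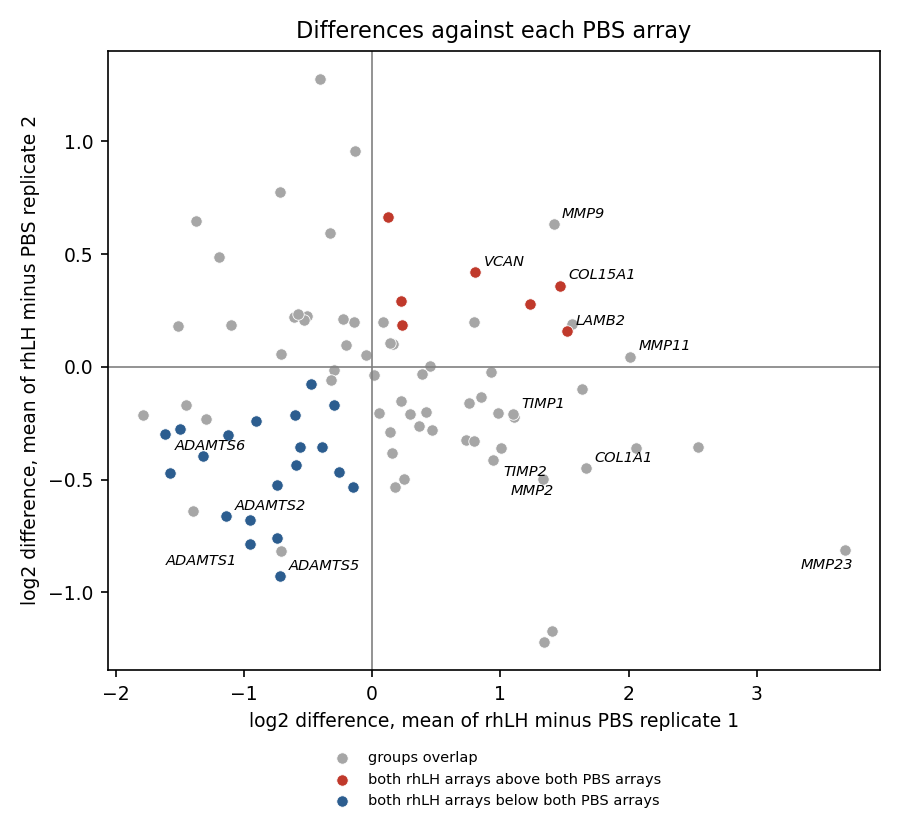
Mean log2 signal of the rhLH arrays minus that of PBS replicate 1 (horizontal axis) and minus that of PBS replicate 2 (vertical axis), 1 point for each of the 89 matrix genes. Both axes share the rhLH arrays, and the horizontal spread is the wider: 47 genes lie in quadrants where the signs differ, and ADAMTS1, ADAMTS4 and ADAMTS5 lie where both are negative.

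Agreement among the probe sets of a gene was incomplete. Of 43 matrix genes with 2 or more kept probe sets, 28 had all of them on 1 side of zero (16 negative and 12 positive), and 15 had both signs. Apart from the ADAMTS genes above, the negative ones include LAMB1 and NID1, and the positive ones include SERPINE2, COL5A2 and TIMP2. The brightest TIMP2 probe set turned to −0.41 without PBS replicate 1. BGN, TIMP1, MMP14 and DCN had both signs.

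A wider list of 78 matrix genes outside the symbol rule, of which 57 were kept, gave 9 higher (15.8%, against 16.3% of kept genes) and 12 lower (21.1%, against 16.1%) on both rhLH arrays, and 0 past the limma test. Without PBS replicate 1 they were 15 and 23, against 34.7% and 34.1% of kept genes. Without PBS replicate 2 they were 27 and 23, against 43.5% either way. The median difference of 0.12 turned to −0.019 without PBS replicate 1 and to −0.016 without rhLH replicate 3. Collagen-modifying enzymes stood at a median of 0.43, with 0.79 against PBS replicate 1 alone and −0.15 against replicate 2 alone. PLOD2, a lysyl hydroxylase of collagen, had signals of 5679.6 and 4257 after rhLH, against 1211 and 3054 after PBS (1.35, SE 0.50), and both rhLH arrays were above both PBS arrays. BMP1, which trims the carboxyl end of procollagens, had 346 and 324 after rhLH, against 183 and 191 after PBS (0.79, SE 0.44). P4HA1, a collagen prolyl hydroxylase subunit, had 1037 and 1177 after rhLH, against 1447 and 2074 after PBS (−0.64), and CRTAP, of another prolyl hydroxylase complex, had a difference of −0.27. Up to 2 genes were named per direction, so this even split follows from the naming rule. Of all 10 collagen-modifying enzymes, 8 had a positive difference and 2 a negative one. Without overlap, 4 of the 10 lay above the PBS arrays and 2 below, against 16.3% and 16.1% of kept genes. Against PBS replicate 2 alone, 4 were positive and 6 negative.

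The hyaluronan genes of the list gave 2 lower and 0 higher of 5, against 16.1% and 16.3% of kept genes. TNFAIP6, which links proteins to hyaluronan in the matrix of the ovulating cumulus, had signals of 647 and 610.0 after rhLH, against 2785 and 871 after PBS (−1.29, SE 0.58). HAS2, a hyaluronan synthase, had 74.4 and 80.3 after rhLH, against 268 and 139 after PBS (−1.17), with both rhLH signals below the filter level. Among receptors, ITGAV had 407 and 256 after rhLH, against 551 and 645 after PBS (−0.85), and ITGA2, a collagen-binding integrin chain, differed by −0.78. ITGA1, also collagen-binding, differed by 0.70 and ITGB5 by 0.68, and naming 2 per direction again follows from the rule. Of all 15 integrins and receptors, 6 had a positive difference and 9 a negative one. Without overlap, 3 of the 15 were higher and 3 lower, near the 16.3% and 16.1% of kept genes. Of the remaining named genes, SPOCK1 differed by −1.46, FBLN5 by −0.70, ECM1 by 0.87 and the membrane protease ADAM15 by 0.66. Each was without overlap, which was the condition for naming them. The difference of SPOCK1, the lowest of its subgroup, was −0.97 without rhLH replicate 3 and −1.95 without rhLH replicate 4. SPOCK1 did not pass a 70th percentile filter, which left −0.70 as the lowest difference of the subgroup.

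Cells that make or cut matrix were followed by markers outside the symbol rule. Fibroblast markers (6 of 8 measured) summed to 4359 and 8310.2 after rhLH, against 6401 and 6708 after PBS, and pericyte and smooth muscle markers (4 of 8) to 9677 and 9263 after rhLH, against 5458 and 8319 after PBS. Endothelial markers (10 of 11) summed to 24605 and 27911 after rhLH, against 22614 and 26442 after PBS. Macrophage markers (7 of 8) summed to 24637 and 18216 after rhLH, against 10269 and 36297 after PBS, and steroidogenic markers (5 of 8) to 166204 and 180574 after rhLH, against 80358 and 168230.0 after PBS. Of these 5 lists, PBS replicate 1 had the lowest sum in all but the fibroblast one. The pericyte and smooth muscle sums were higher on both rhLH arrays, though 1 of their 4 genes, TAGLN, was higher on both by itself, and the list's median difference was 0.61 against PBS replicate 1 alone and −0.085 against replicate 2 alone. The other sums overlapped between the groups. Of 6 T cell markers PTPRC alone was measured, which other leukocytes express too, and it had signals of 733 and 234 after rhLH, against 628 and 356 after PBS, and the red cell markers (2 of 4) summed to 996 and 1235 after rhLH, against 1123 and 899 after PBS. No measured marker had a signal of 0. The part of any of these cells in the matrix values was not tested.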

How the data were processed

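The deposited values are probe set intensities on a linear scale, MAS5 signals per the submitters' processing notes. Total RNA was extracted with Trizol and column cleaned, per the labels' protocols. The scaling target and detection calls were not given in the sources used here. Of 52865 probe sets, 99 controls were set aside, which left 52766, of which 24956 had 1 symbol in the platform annotation, whose symbols can be old. Values entered as log2(signal + 16). The 31659 probe sets with a mean above the 40th percentile entered limma 3.58.1, run in R 4.3.3 (lmFit, eBayes with trend, two-sided, Benjamini-Hochberg over all of them, threshold 0.05), after a test on simulated data. Probes are of the rhesus macaque, and mismatches to bonnet monkey RNA were not examined. No genome was used, so no coordinates or sequences are given.

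The matrix genes, the wider list, the markers and the rule for naming genes were chosen with earlier results of these data known. The rule names a panel of well-known matrix genes, up to 3 genes per role and direction by limma p among those without overlap, and any gene past the threshold or the 2-fold rule, 41 in all. Of the wider list it names up to 2 per subgroup and direction. Other genes are marked as named after their values were seen, or given in ranges. Alternatives were quantile normalization, arrays centred on medians, a pseudocount of 1 or of 64, a 70th percentile filter or none, other variance priors, array weights, the median over a gene's probe sets, and leaving out each array. The number of arrays, 2 in each group, limits the precision.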

Additional observations from a re-analysis of the deposited data

How the results depend on the processing

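Of the 41 named matrix genes, 11 changed direction without PBS replicate 1, 3 without PBS replicate 2, 6 without rhLH replicate 3 and 3 without rhLH replicate 4, against 3 to 4 under another scaling or choice of probe set. A gene whose groups do not overlap cannot change direction when an array is left out, and many of the 41 were named for that. The changes with an array left out therefore all came from the overlapping genes, which are fewer than 41. No paired analysis was made, because the labels tie no PBS array to an rhLH array. Pseudocounts of 1 and 64 turned the direction of none of these 41 genes. Dropping the filter or changing the variance prior leaves a gene's difference as it is, so neither could turn a direction. Array weights could not either, since they were equal within each group (0.41 for both PBS arrays, 2.46 for both rhLH arrays). They did not set PBS replicate 1 apart from PBS replicate 2. None of these settings made a call. The median over all matrix genes, 0.0013, turned to −0.016 with a pseudocount of 64 and to −0.076 with no filter. The median over a gene's probe sets moved the ADAMTS median to −0.075. Leaving out 1 array leaves a group with 1 array, which limma then assumes to vary like the other group. Over these repeats, the genes higher on the rhLH arrays numbered 17 to 38 and those lower 30 to 40, the genes 2-fold apart 1 to 24, the limma calls among matrix genes 0 to 27 and in the wider list 0 to 20, and the median lay at −0.20 to 0.017. The highest numbers of 2-fold genes and limma calls came without PBS replicate 2, where limma called 30.3% of matrix genes and 25.8% of all kept probe sets, with PBS replicate 1 as the single control. Without PBS replicate 2, 14 of the 89 matrix genes were at least 2-fold higher and 10 lower. Among all 10998 kept genes, 1426 were higher and 1118 lower by that rule, against 35 and 37 with all 4 arrays. The rise was thus not limited to matrix genes. Centring the arrays gave 13 lower genes (14.6%, against 9.48% of kept genes) and 10 higher ones (11.2%, against 25.8%). The median of the matrix genes was then 0.23, beside 0.25 for all kept genes. A 70th percentile filter, which left 9 ADAMTS genes, moved their median to −0.75, beside 0.084 for all genes above that filter.

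Directions turned as follows, and the cause was not tested. With an array left out, the differences spanned −0.10 to 1.64 for COL18A1, −0.45 to 1.67 for COL1A1, −0.024 to 0.93 for COL1A2, −0.16 to 0.76 for DCN and −0.26 to 0.36 for FN1. They spanned −0.0078 to 0.27 for LAMA4, −0.15 to 0.23 for LOX, −0.43 to 0.70 for MMP1, −0.33 to 0.79 for MMP14, −0.031 to 0.27 for MMP19 and −0.50 to 1.33 for MMP2. For PLAU the span was −0.33 to 0.33, for PLAUR −0.39 to 0.38, for THBS1 −0.39 to 0.012, for TIMP1 −0.21 to 1.10, for TIMP2 −0.41 to 0.94 and for TIMP3 −0.58 to 0.35. Quantile normalization gave −0.016 for DCN, −0.30 for FN1, −0.022 for PLAU and 0.0026 for PLAUR. Centring gave 0.22 for PLAUR, 0.037 for THBS1 and 0.11 for TIMP3. The median over a gene's probe sets gave 0.13 for BGN, −0.13 for MMP14, 0.57 for PLAUR and −0.087 for TIMP1.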
